A study of Mus musculus with 8 samples.

Results

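The leukocyte-endothelial adhesion molecules described here are 9 genes chosen by name: the selectin genes Sele and Selp, the selectin ligand gene Selplg, the integrin ligand genes Icam1, Icam2 and Vcam1, and the junctional genes Jam2, Jam3 and Esam. Of these, 8 had a probe set annotated with that single symbol, among 19938 genes measured in all. The Selp transcript was not analysed here. Each of the 8 had 1 probe set, so no choice between probe sets was needed. Their transcripts were measured in myocardium of male CH3 mice aged 8 to 10 weeks and weighing 25 to 30 g. The 4 DJ-1 samples came from mice given recombinant DJ-1 protein 1 hour before ligation of the left anterior descending coronary artery, and the 4 placebo samples from mice given PBS at the same time. Occlusion lasted 45 minutes and reperfusion 2 hours in both groups, so every sample was reperfused tissue and no uninjured heart served as a baseline. Below, DJ-1 hearts and placebo hearts stand for these samples, and n counts samples, which the labels do not state to be 1 mouse each. The arrays show the endogenous transcripts, with no measure of protein at the cell surface. The comparison asked whether these transcripts differed when DJ-1 had been given before ischaemia.

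Leukocytes leave the blood in steps. Selectins on activated endothelium bind sugar-bearing ligands on the leukocyte and make it roll, integrins on the leukocyte then bind immunoglobulin-family ligands such as Icam1 and Vcam1 and make it stop, and junctional proteins steer it between endothelial cells. Sele, Icam1 and Vcam1 are transcribed in endothelium on exposure to cytokines such as Tnf and Il1b through the transcription factor NF-kappaB, whereas Icam2, Esam, Jam2 and Jam3 are present in resting vessels. In reperfused myocardium the neutrophils are the first leukocytes to arrive by this route.

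The promoters of Sele and Icam1 are shown because the levels of these genes went together from sample to sample, as described further on. The promoter table used here, from RefSeq on build GRCm38.p6, held 3 of the 9 genes (Sele, Selp and Icam1). Each sequence is the 250 bases before the annotated start, on the plus strand, written 5′ to 3′. Capitals mark every match to GGNNNTTCC on either strand, a short form of the site that NF-kappaB binds, chosen with these sequences known.
Sele promoter, chr1:164047984-164048233: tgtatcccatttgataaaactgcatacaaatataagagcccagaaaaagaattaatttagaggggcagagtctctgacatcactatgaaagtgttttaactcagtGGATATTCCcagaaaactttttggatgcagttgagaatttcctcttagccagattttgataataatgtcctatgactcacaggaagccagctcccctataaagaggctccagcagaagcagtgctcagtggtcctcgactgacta
Icam1 promoter, chr9:21015690-21015939: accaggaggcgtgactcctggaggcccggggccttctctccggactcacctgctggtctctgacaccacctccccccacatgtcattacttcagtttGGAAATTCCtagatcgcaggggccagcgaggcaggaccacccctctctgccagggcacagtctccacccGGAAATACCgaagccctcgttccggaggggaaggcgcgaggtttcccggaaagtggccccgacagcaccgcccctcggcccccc
The Sele window held 1 match, GGATATTCC, beginning 145 bases before the start. The Icam1 window held 2, GGAAATTCC beginning 153 bases and GGAAATACC beginning 84 bases before the start, and the first of these reads as a match on both strands and was counted once. The Selp window, not shown, also held 1 match, GGAAAGGCC, beginning 14 bases before the start, so a match was not particular to Sele and Icam1. Of all 32851 promoter windows of the same length, 15.7% held at least 1 match. A match describes the letters and is not evidence of binding.

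When DJ-1 hearts were set against placebo hearts with limma, none of the 8 measured genes reached an adjusted p of 0.05, and 0% of all 19938 genes did. A single member, Jam3, had an unadjusted p under 0.05, where 5.99% of all genes did (3.63% with a higher and 2.36% with a lower mean in DJ-1 hearts). Jam3 was also the only one of the 8 whose DJ-1 and placebo samples did not overlap, which held for 3.22% of all genes (1.54% higher and 1.68% lower in DJ-1 hearts). With each array centred on its median, 435 genes were higher and 796 lower at an unadjusted p under 0.05, against 724 and 470 as deposited. The DJ-1 mean was the higher one for 5 of the 8 members (Icam1, Sele, Vcam1, Esam and Selplg) and the lower one for 3 (Icam2, Jam2 and Jam3), where 52.5% of all genes were higher and 47.5% lower, and the median difference was 0.11 over the members and 0.01 over all genes on the log2 scale. The range of differences ran from -0.37 for Jam3 to 0.49 for Icam1. The tissue is bulk myocardium, where fewer cells of a type and less RNA per cell cannot be told apart.

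**Figure D1:**
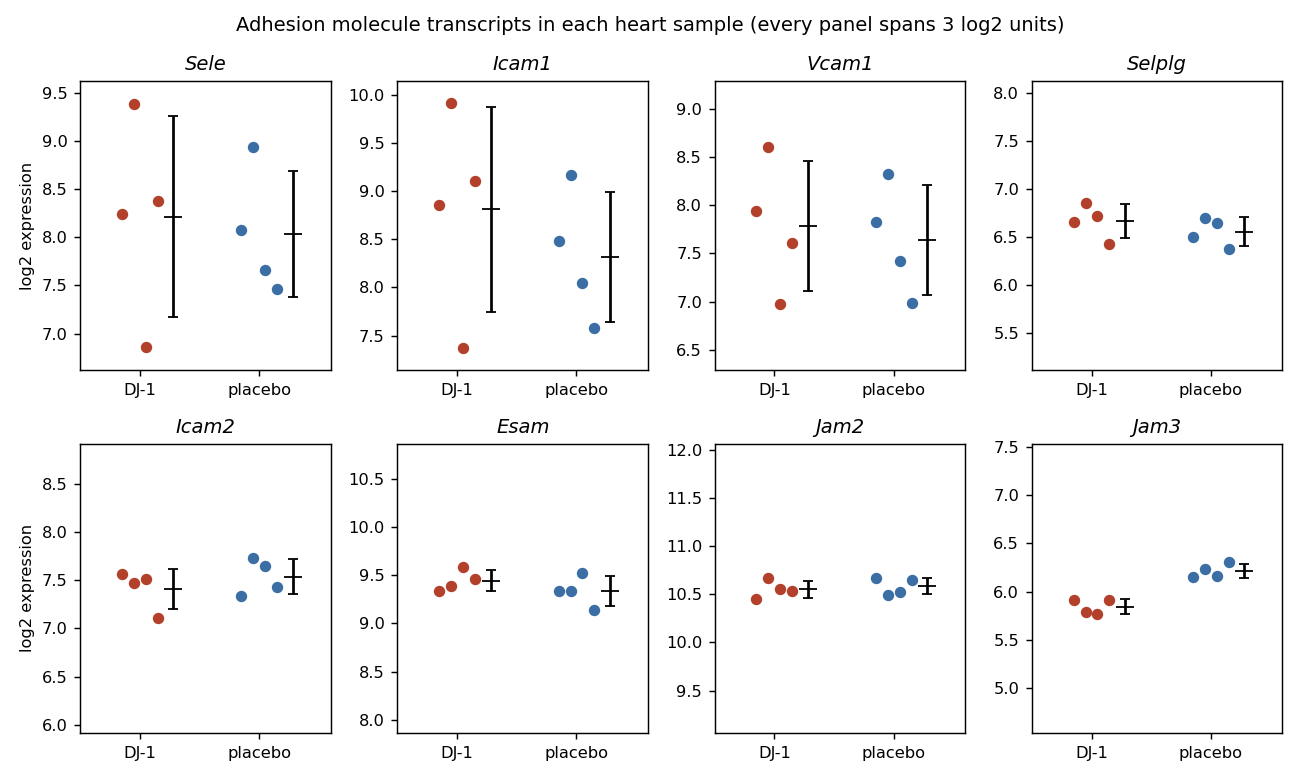
Log2 expression (vertical axis, 3 units in every panel) of the 8 measured adhesion genes in each of 4 DJ-1 and 4 placebo samples; points are samples and bars are the mean ± SD. Sele, Icam1 and Vcam1 spread over 1.62 to 2.55 log2 units between samples, and Jam3 is the gene whose groups do not overlap.

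Sele encodes E-selectin, the endothelial selectin that is made mainly after activation. Its log2 level was 8.24, 9.38, 6.86 and 8.38 in DJ-1 replicates 1 to 4, against 8.07, 8.93, 7.67 and 7.47 in placebo replicates 1 to 4. The DJ-1 samples held both the highest and the lowest value, and the groups overlapped over the whole placebo range. The means were 8.22 ± 1.04 in DJ-1 hearts and 8.03 ± 0.65 in placebo hearts (SD, n = 4 each). The replicate spread exceeded the difference, which was 0.18 (SE 0.45, 95% confidence interval -0.81 to 1.17; limma, adjusted p = 0.956). With DJ-1 replicate 2 omitted it was -0.21, and with placebo replicate 4 omitted it was -0.01, so its sign rested on single samples.

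Icam1 encodes the endothelial ligand of leukocyte integrins that mediates firm arrest. Its log2 level was 8.85, 9.91, 7.37 and 9.10 in DJ-1 replicates 1 to 4, against 8.48, 9.17, 8.04 and 7.58 in placebo replicates 1 to 4. DJ-1 replicate 2 was again the highest and DJ-1 replicate 3 the lowest of the 8 samples. The means were 8.81 ± 1.06 in DJ-1 hearts and 8.32 ± 0.68 in placebo hearts (SD, n = 4 each), a difference of 0.49 (SE 0.46, 95% confidence interval -0.53 to 1.51, adjusted p = 0.871 by limma). Without DJ-1 replicate 3 the difference was 0.97 (unadjusted p = 0.0172, adjusted p = 0.94 by limma), and without DJ-1 replicate 2 it was 0.12. The difference also lay over 1.5 times away from the full value without DJ-1 replicates 3 and 4 (1.07, adjusted p = 0.987 by limma), the samples that stood apart in overall expression. Omitting placebo samples moved the Icam1 difference as well, to 0.78 without placebo replicate 2 and 0.25 without placebo replicate 4.

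Vcam1 encodes the ligand of the integrin that contains Itga4, which monocytes and lymphocytes use to attach. Its log2 level was 7.95, 8.60, 6.98 and 7.61 in DJ-1 replicates 1 to 4, against 7.82, 8.32, 7.43 and 6.99 in placebo replicates 1 to 4. The lowest values, in DJ-1 replicate 3 and placebo replicate 4, lay next to each other, and the groups overlapped almost completely. The means were 7.78 ± 0.68 in DJ-1 hearts and 7.64 ± 0.57 in placebo hearts (SD, n = 4 each), with a difference of 0.14 (SE 0.33, 95% confidence interval -0.58 to 0.87, adjusted p = 0.953 by limma). Without DJ-1 replicate 2 the difference was -0.13, and without placebo replicate 4 it was -0.07.

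The spread between samples was the main feature of these cytokine-inducible genes. The SD within groups was 0.89 for Icam1, 0.87 for Sele and 0.62 for Vcam1 on the log2 scale. It exceeded that of 99.9% of all genes for Icam1, 99.8% for Sele and 99.5% for Vcam1, whereas for Jam2 and Jam3 it exceeded that of 7.98% and 4.64%. The sample with the highest Icam1 level had 5.85 times the level of the lowest sample, and the corresponding ratios were 5.76 for Sele and 3.08 for Vcam1. In Icam2, Esam, Selplg, Jam2 and Jam3 this ratio lay between 1.16 and 1.54.

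Sele and Icam1 ordered the 8 samples identically. DJ-1 replicate 2 was highest, followed by placebo replicate 2, DJ-1 replicates 4 and 1, placebo replicates 1, 3 and 4, and DJ-1 replicate 3. Vcam1 kept the same first 2 and last 3 samples and differed only in the placing of DJ-1 replicate 4, which had rank 3 for Sele and Icam1 and rank 5 for Vcam1. Across the 8 samples Sele and Icam1 had a Pearson r of 0.97 (exact permutation p = 7.44e-05) and a Spearman rho of 1 (exact permutation p = 4.96e-05, the smallest that the test allows here). Sele with Vcam1 gave r = 0.95 (exact permutation p = 0.000546) and rho = 0.93 (exact permutation p = 0.00223), and Icam1 with Vcam1 gave r = 0.94 (exact permutation p = 0.00109) and rho = 0.93 (exact permutation p = 0.00223). These are 3 of a family of 14 relations, all two-sided, and the Benjamini-Hochberg adjusted p-values of r were 0.000521, 0.00153 and 0.00255. Every permutation p given here and below treats the samples as exchangeable. It leaves out the structure by replicate number that is described with the processing.

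The relations were of the same size within groups. With each gene centred within its group, r was 0.99 for Sele with Icam1, 0.95 for Sele with Vcam1 and 0.95 for Icam1 with Vcam1, each with an adjusted permutation p of 0.0139. Without the 2 samples farthest from the median of the first gene, r was 0.94 for Sele with Icam1, 0.91 for Sele with Vcam1 and 0.85 for Icam1 with Vcam1 (exact permutation p = 0.00417, 0.0167 and 0.0319, in that order). The last of these had an adjusted p of 0.0745.

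A list of inducers and NF-kappaB genes had 16 measured members, among them the cytokine genes Tnf, Il1a, Il1b and Il6, the chemokine genes Ccl2, Cxcl1 and Cxcl2 and the feedback inhibitor genes Nfkbia and Tnfaip3. Its mean, centred on the 8 arrays, was 0.08, 0.73, -0.46 and 0.16 in DJ-1 replicates 1 to 4, against 0.01, 0.21, -0.25 and -0.47 in placebo replicates 1 to 4. The order of the samples by this mean was close to their order by Icam1 and Sele, but not every gene of the list followed it. Tnf was lowest in DJ-1 replicate 1 (5.97) and highest in DJ-1 replicate 4 (6.67), and Nfkbie was lowest in DJ-1 replicate 1 (5.69) and highest in placebo replicate 2 (6.12). The inducer mean correlated with Icam1 at r = 0.98 (exact permutation p = 4.96e-05, adjusted p = 0.000521, rho = 0.98 with exact permutation p = 0.000397). With Sele it gave r = 0.96 (exact permutation p = 0.000198, adjusted p = 0.000926, rho = 0.98 with exact permutation p = 0.000397) and with Vcam1 r = 0.94 (exact permutation p = 0.000397, adjusted p = 0.00139, rho = 0.90 with exact permutation p = 0.00456). Within groups r was 0.98, 0.98 and 0.96 for Icam1, Sele and Vcam1, and without the 2 samples farthest from the median of the inducer mean it was 0.99, 0.97 and 0.89.

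**Figure D2:**
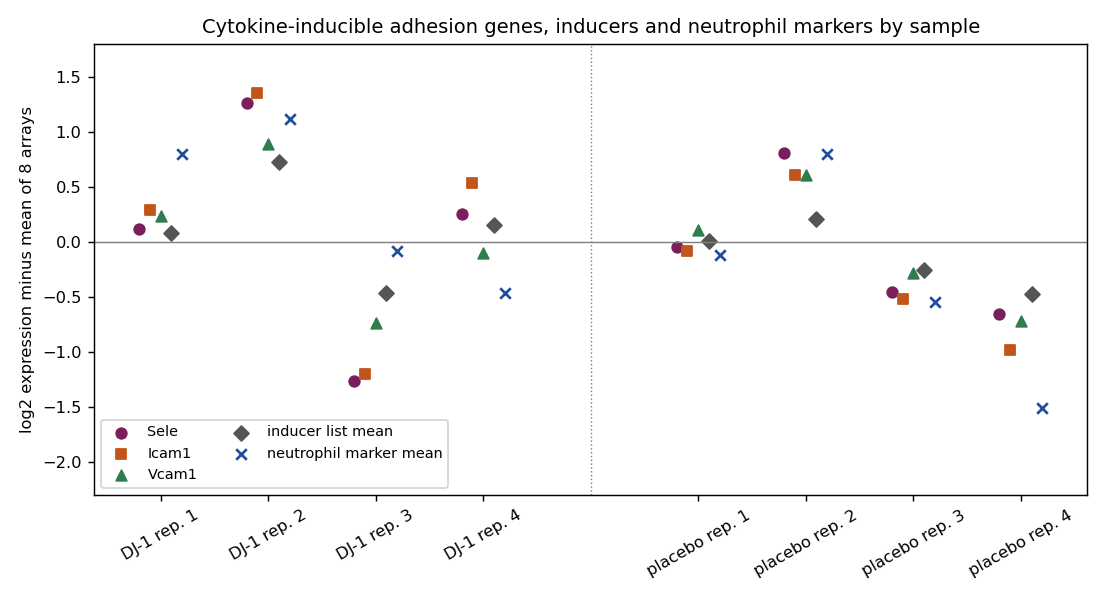
Log2 expression minus the mean of the 8 arrays (vertical axis) of Sele, Icam1 and Vcam1, with the mean of the 16 inducer and NF-kappaB genes and of the 14 neutrophil markers, in each sample. All 5 are highest in DJ-1 replicate 2, and Sele and Icam1 are lowest in DJ-1 replicate 3, where the neutrophil mean is -0.08.

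Among the 9968 other genes above the median mean level, the genes closest to Icam1 in pattern were Sele, Il6 and Ccl2. Likeness was taken as the mean absolute difference between gene-centred log2 levels over the 8 samples, which was 0.16 for Sele, 0.16 for Il6 and 0.23 for Ccl2, against a median of 0.71 over all those genes. The measure is not scaled to spread, so a gene that hardly changes lies near that median. The median therefore describes the spread of Icam1 and does not show how rare the likeness is. Il6 and Ccl2 belong to the inducer list as well. Il6, an acute-phase cytokine gene, differed by 0.54 (95% confidence interval -0.64 to 1.71) and Ccl2, a monocyte chemokine gene, by 0.49 (95% confidence interval -0.47 to 1.45) between DJ-1 and placebo hearts, and neither passed (limma, adjusted p = 0.879 and 0.864).

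Of the 16 inducers and NF-kappaB genes, 15 averaged higher in DJ-1 hearts, where 52.5% of all genes did. Genes of the list can vary together, so these are not 15 separate observations. The median difference over the list was 0.19. By limma 0 of the 16 had an unadjusted p under 0.05, where 5.99% of all genes did. Without DJ-1 replicate 3 the median difference was 0.34 and 6 did, against 934 of all 19938 genes. Without DJ-1 replicate 2 it was 0.08 and 0 did, against 1480 of all genes. The member of smallest p, Il1a, was at 5.20 ± 0.53 in DJ-1 hearts and 4.74 ± 0.43 in placebo hearts. The inhibitor gene Nfkbie was at 5.87 ± 0.15 in DJ-1 hearts and 6.04 ± 0.10 in placebo hearts, and the neutrophil chemokine gene Cxcl2 at 9.19 ± 0.91 in DJ-1 hearts and 8.62 ± 0.29 in placebo hearts (SD, n = 4 each). The list mean had its highest value, 0.73, in DJ-1 replicate 2 and its lowest, -0.47, in placebo replicate 4.

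Neutrophil markers were followed because these cells use the molecules described here. The mean of 14 neutrophil markers, 13 of which lay above the background guide (the 95th percentile of the olfactory receptor genes, 4.74), ranged from -0.46 to 1.12 in DJ-1 samples and from -1.51 to 0.80 in placebo samples. All 14 averaged higher in DJ-1 hearts, where 52.5% of all genes did, with differences from 0.11 to 1.32 and a median of 0.70, against 0.01 over all genes. The 1.32 belonged to Retnlg and was the highest of all 19938 genes. None passed an adjusted p of 0.05 (limma), none was free of overlap between the groups, and 2 had an unadjusted p under 0.05: the granule protein genes Ltf, with 0.35, and Lcn2, with 1.07. The median difference was 0.16 with placebo replicate 4 omitted, 0.37 with DJ-1 replicate 2 omitted and 1.15 when placebo replicate 2 was omitted. With the replicate number as a block, 11 of these genes reached an unadjusted p under 0.05, where 1302 of all 19938 genes did. The count was 9 without DJ-1 replicates 3 and 4, where 911 of all genes reached that p, and 5 without placebo replicate 2, where 1125 did. The count of neutrophil markers was 0 in the unmoderated fit and with only genes above the background guide fitted. It was also 0 without DJ-1 replicate 1, placebo replicate 3 or placebo replicate 4.

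The neutrophil mean correlated with Vcam1 at r = 0.84 (exact permutation p = 0.0107, adjusted p = 0.0187, rho = 0.76 with exact permutation p = 0.0368 and adjusted p = 0.0572). With Sele it gave r = 0.68 (exact permutation p = 0.0591, adjusted p = 0.0753) and with Icam1 r = 0.73 (exact permutation p = 0.0409, adjusted p = 0.0573), with rho = 0.67 for each (exact permutation p = 0.0831), and neither passed over the 8 samples. Without DJ-1 replicate 3 both did, with r = 0.86 for Sele (permutation, adjusted p = 0.0197) and 0.85 for Icam1 (permutation, adjusted p = 0.0205), and without DJ-1 replicate 4 Icam1 did with r = 0.83 (permutation, adjusted p = 0.0368). Without the 2 samples farthest from the median of the neutrophil mean, r was 0.68 for Vcam1 (exact permutation p = 0.138), 0.48 for Sele and 0.42 for Icam1. None of these passed. Leaving out extreme samples narrows the range and tends to lower r by itself, so it cannot show that a relation rested on them. With 1 array omitted at a time the r with Vcam1 ran from 0.78 to 0.96. It was 0.96 without DJ-1 replicate 3 (permutation, adjusted p = 0.000926), and it did not pass without DJ-1 replicate 2 (r = 0.78; permutation, adjusted p = 0.0649) or placebo replicate 4 (r = 0.80; permutation, adjusted p = 0.0587). The samples that departed most were DJ-1 replicate 3, with the lowest Sele and Icam1 levels but a neutrophil mean of -0.08, and DJ-1 replicate 4, of rank 3 for Sele and Icam1 with a neutrophil mean of -0.46.

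**Figure D3:**
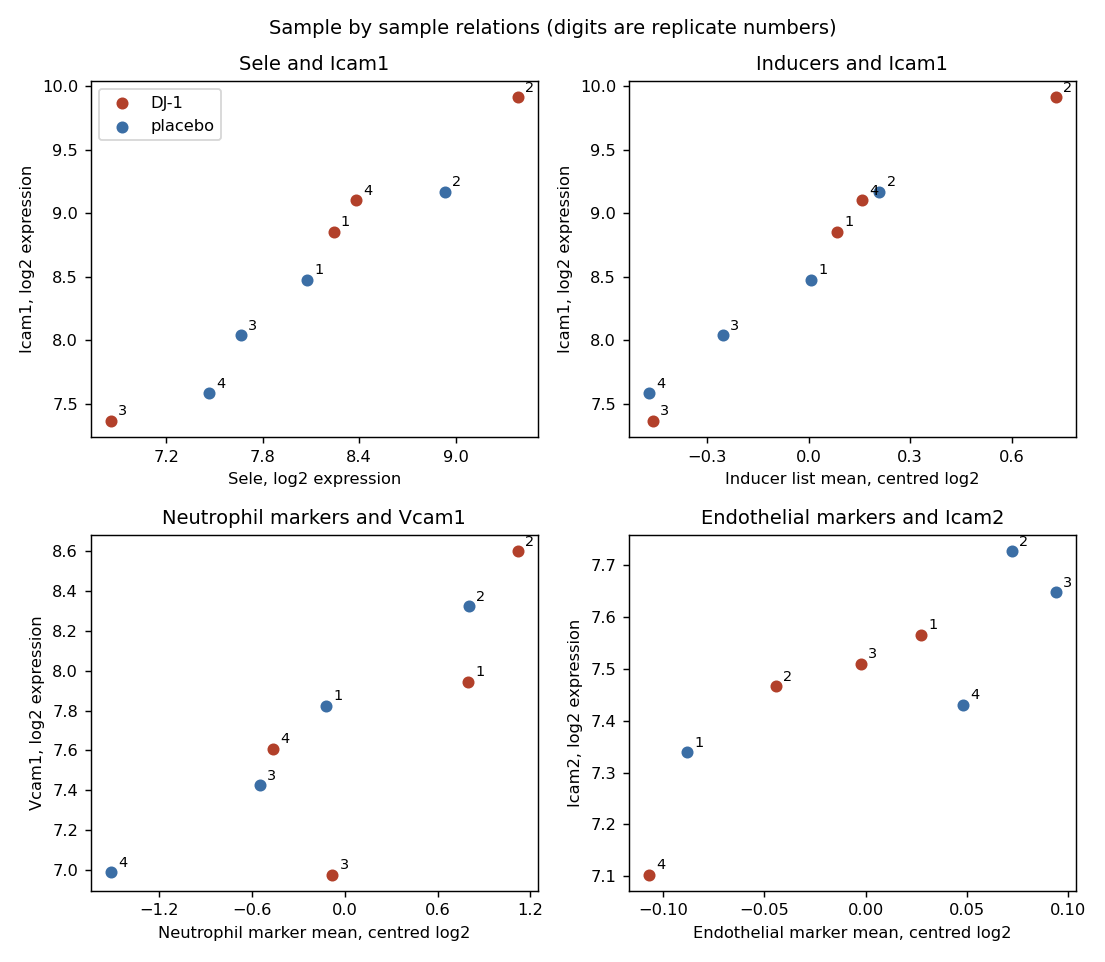
Sample by sample relations: Sele against Icam1, the inducer list mean against Icam1, the neutrophil marker mean against Vcam1 and the endothelial marker mean against Icam2, on log2 scales, with DJ-1 samples in red and placebo samples in blue and the replicate number beside each point. The first 2 panels have r of 0.97 and 0.98, and DJ-1 and placebo samples lie along the same line.

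Selplg encodes PSGL-1, the ligand that leukocytes present to selectins. Its log2 level was 6.66, 6.86, 6.72 and 6.43 in DJ-1 replicates 1 to 4, against 6.50, 6.70, 6.65 and 6.38 in placebo replicates 1 to 4. Replicate 4 was the lowest sample of both groups, and the groups overlapped. The difference was 0.11 (SE 0.12, 95% confidence interval -0.15 to 0.36, adjusted p = 0.886 by limma). Selplg followed the neutrophil markers with r = 0.81 (exact permutation p = 0.0125, adjusted p = 0.0194) and rho = 0.86 (exact permutation p = 0.0107, adjusted p = 0.0214). Without the 2 samples farthest from the median of the neutrophil mean r was 0.51 (exact permutation p = 0.265). This relation did not pass there, which again cannot show that it rested on those samples. With 1 array omitted at a time r ran from 0.70 to 0.87, and it did not pass without DJ-1 replicate 2 (r = 0.74; permutation, adjusted p = 0.102) or placebo replicate 4 (r = 0.70; permutation, adjusted p = 0.144).

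Among the constitutive endothelial genes, Icam2, an integrin ligand of resting vessels, was at 7.57, 7.47, 7.51 and 7.10 in DJ-1 replicates 1 to 4, against 7.34, 7.73, 7.65 and 7.43 in placebo replicates 1 to 4. DJ-1 replicate 4 was the lowest of all and the groups overlapped. The difference was -0.13 (SE 0.13, 95% confidence interval -0.41 to 0.16, adjusted p = 0.882 by limma), and -0.02 without DJ-1 replicate 4. Icam2 followed the mean of 16 endothelial markers, among them Pecam1, Cdh5 and Kdr, with r = 0.87 (exact permutation p = 0.00288, adjusted p = 0.00575) and rho = 0.83 (exact permutation p = 0.0154, adjusted p = 0.0269). Within groups r was 0.85 (adjusted permutation p = 0.0139). Without the 2 samples farthest from the median of the endothelial mean r was 0.67 (exact permutation p = 0.151). The relation did not pass there, with the same limit from the narrowed range.

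Esam encodes an adhesion molecule of endothelial tight junctions and platelets. Its log2 level was 9.33, 9.39, 9.59 and 9.46 in DJ-1 replicates 1 to 4, against 9.34, 9.34, 9.52 and 9.14 in placebo replicates 1 to 4. Replicate 3 was the highest of each group. The difference of 0.11 (SE 0.11, 95% confidence interval -0.12 to 0.34) did not pass (limma, adjusted p = 0.879). The relation with the endothelial markers, r = -0.12 (exact permutation p = 0.784, rho = -0.19 with exact permutation p = 0.665), was not distinguishable from 0.

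Jam2 and Jam3 encode junctional adhesion molecules that bind each other across endothelial contacts and serve as integrin ligands. Jam2 was at 10.45, 10.66, 10.56 and 10.54 in DJ-1 replicates 1 to 4, against 10.67, 10.49, 10.53 and 10.64 in placebo replicates 1 to 4, the narrowest range of the 8 genes at 0.22 log2 units. The replicates varied by more than the difference, which was -0.03 (SE 0.09, 95% confidence interval -0.23 to 0.17, adjusted p = 0.962 by limma). The endothelial marker mean gave r = -0.44 with Jam2 (exact permutation p = 0.271, rho = -0.52 with exact permutation p = 0.197) and r = 0.47 with Jam3 (exact permutation p = 0.232, rho = 0.62 with exact permutation p = 0.115), and neither passed. The first was 0.042 with each array centred on its median.

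Jam3 was at 5.92, 5.79, 5.77 and 5.91 in DJ-1 replicates 1 to 4, against 6.15, 6.24, 6.16 and 6.30 in placebo replicates 1 to 4. Every DJ-1 sample lay below every placebo sample, with a gap of 0.24 between the highest DJ-1 and the lowest placebo value. The means were 5.84 ± 0.08 in DJ-1 hearts and 6.21 ± 0.07 in placebo hearts (SD, n = 4 each), which is 0.774 times the placebo level. The difference of -0.37 (SE 0.09) had rank 22 of 19938 by p and did not pass over all genes (limma, adjusted p = 0.824). Under the 20 alternatives tried it ran from -0.41 to -0.34, with an unadjusted p from 0.000433 to 0.0349 and an adjusted p from 0.651 to 1, all by limma or its unmoderated form. Leaving out DJ-1 replicate 3 gave -0.34, and leaving out replicate 4 of that group as well gave -0.36.

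Some markers of heart cell types also averaged lower in DJ-1 hearts, without passing over all genes. Of all genes, 47.5% averaged lower, 2.36% were lower at an unadjusted p under 0.05 and 1.68% were lower without overlap. Of the 16 endothelial markers 10 averaged lower in DJ-1 hearts, and 2 had an unadjusted p under 0.05: Myct1 with -0.49, the single gene of the 16 without overlap, and the VEGF receptor gene Kdr with -0.48. The endothelial marker mean itself ranged from -0.11 to 0.03 in DJ-1 samples and from -0.09 to 0.09 in placebo samples. Fibroblast markers averaged lower for 7 of 8 genes, with a list mean from -0.17 to 0.0064 in DJ-1 samples and from 0.0073 to 0.14 in placebo samples, which did not overlap by a narrow margin. Gsn, which encodes the actin-severing protein gelsolin, with -0.21 and no overlap, and Lum, a matrix proteoglycan gene, with -0.31 had an unadjusted p under 0.05, against 0 fibroblast markers without DJ-1 replicate 3, placebo replicate 2 or placebo replicate 3 and 1 without DJ-1 replicate 4. Smooth muscle and pericyte markers averaged lower for 7 of 8 genes, with a list mean from -0.14 to 0.01 in DJ-1 samples and from -0.01 to 0.17 in placebo samples. Kcnj8, a potassium channel gene, with -0.44 and Pdgfrb, a growth factor receptor gene of pericytes, with -0.30 had an unadjusted p under 0.05, both without overlap. The count was 1 with DJ-1 replicate 2 or placebo replicate 4 omitted and 4 with placebo replicate 3 omitted. Over the omission of single arrays, 833 to 1480 of all 19938 genes had an unadjusted p under 0.05, and 1384 did without placebo replicate 3. Cardiomyocyte markers averaged lower for 8 of 10 genes, 0 with an unadjusted p under 0.05 and a median difference of -0.03, and their list mean ranged from -0.13 to 0.08 in DJ-1 samples and from -0.05 to 0.14 in placebo samples. The neutrophil markers, all 14 averaging higher, went the other way, but markers of other leukocytes did not share this. Of 9 monocyte and macrophage markers, 5 averaged higher and 4 lower, with a median difference of 0.02 and 0 at an unadjusted p under 0.05. Of 7 lymphocyte markers, 2 averaged higher and 5 lower, with a median difference of -0.18 and 1 lower at an unadjusted p under 0.05. With each array centred on its median, 12 endothelial, 8 fibroblast, 7 smooth muscle and pericyte and 10 cardiomyocyte markers averaged lower. Under that scaling 40.4% of all genes averaged higher, against 52.5% as deposited, so these counts depend on the scaling. Every measured marker of these 4 lists of heart cells lay above the background guide, and their part in the Jam3 difference was not tested. The genes closest to Jam3 in pattern were Cygb, Prr12 and Xylt2, with a mean absolute difference of 0.05, 0.05 and 0.06 over the 8 samples against a median of 0.19 over 9968 genes. That median likewise describes the spread of Jam3 and does not show how rare the likeness is.

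**Figure D4:**
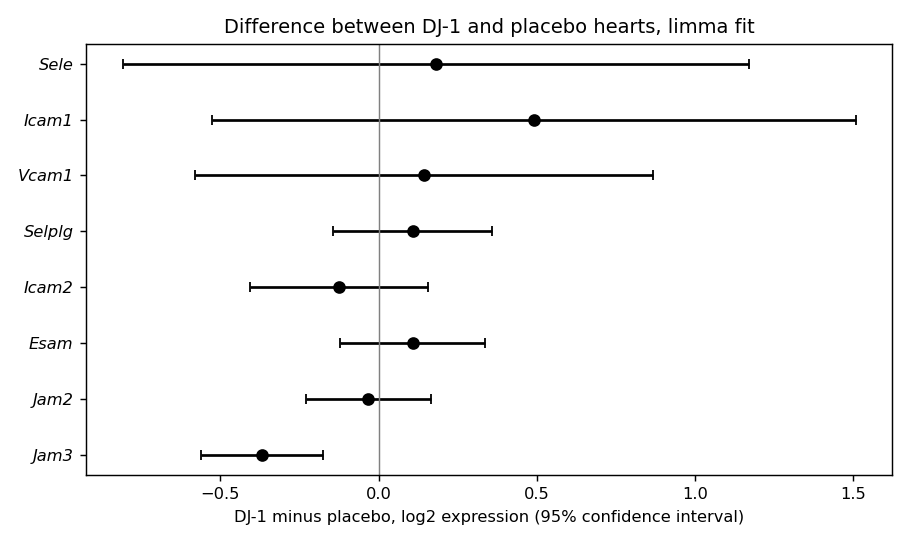
Difference in log2 expression, DJ-1 minus placebo (horizontal axis), for the 8 measured adhesion genes, with points at the limma estimate and bars for the 95% confidence interval. The interval of Jam3 lies below 0 at -0.56 to -0.18, without passing the adjustment over all genes, and the intervals of the other 7 include 0.

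The other genes of leukocyte adhesion and transmigration were taken from 3 lists of 82 genes, of which 79 were measured. None passed an adjusted p of 0.05 (limma), 3 had an unadjusted p under 0.05 with a higher and 2 with a lower mean in DJ-1 hearts, and the groups did not overlap for 2 higher and 2 lower genes. Of all 19938 genes, 5.99% had an unadjusted p under 0.05 by limma (3.63% upward with DJ-1 and 2.36% downward). Groups free of overlap made up 3.22% of all genes (1.54% upward and 1.68% downward). Whether the lists exceeded these shares was not tested, so the genes named below are described singly. The median difference over the 79 genes was -0.03, against 0.01 over all genes.

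Among 24 genes that make or carry selectin ligands, 11 had a higher and 13 a lower mean in DJ-1 hearts. Spn, which encodes the leukocyte sialomucin CD43, was at 5.14 ± 0.12 in DJ-1 hearts and 4.92 ± 0.08 in placebo hearts (unadjusted p = 0.042 by limma, and under 0.05 in 6 of 20 alternatives). The sulfotransferase gene Chst4 was at 4.29 ± 0.12 in DJ-1 hearts and 4.04 ± 0.16 in placebo hearts, at or below the background guide (unadjusted p under 0.05 by limma, and in 7 of the 19 alternatives that tested it), and the mucosal addressin gene Madcam1 was at 5.40 ± 0.17 in DJ-1 hearts and 5.08 ± 0.30 in placebo hearts (SD, n = 4 each). The samples did not overlap for Spn alone of these 3.

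Among 24 leukocyte integrin genes and their activators and sheddases, 14 had a higher and 10 a lower mean. Itgax, which encodes the integrin chain CD11c, was at 4.76 ± 0.13 in DJ-1 hearts and 4.42 ± 0.08 in placebo hearts, without overlap (unadjusted p = 0.00438 by limma, and under 0.05 in all 19 alternatives that tested it), with an average level below the background guide. Itga4, the integrin chain that binds Vcam1, was at 5.58 ± 0.03 in DJ-1 hearts and 5.79 ± 0.14 in placebo hearts, also without overlap (unadjusted p = 0.0469). That p was under 0.05 in 10 of 20 alternatives, and not with any 1 DJ-1 replicate omitted, with placebo replicate 2 or 3 omitted, with an intensity trend or with the replicate block. The shedding protease gene Adam10 was at 7.61 ± 0.15 in DJ-1 hearts and 7.89 ± 0.15 in placebo hearts (unadjusted p = 0.0265, and under 0.05 in 15 of 20 alternatives; SD, n = 4 for each of these 3 genes). Itgb2 and Itgam, which form an Icam1-binding integrin of neutrophils, differed by 0.21 and 0.10 with intervals of -0.11 to 0.52 and -0.42 to 0.61.

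Among 31 genes of endothelial junctions and transmigration, 11 had a higher and 20 a lower mean in DJ-1 hearts, and 0 had an unadjusted p under 0.05. Those of smallest p were the scavenger receptor gene Stab1 at 7.75 ± 0.10 in DJ-1 hearts and 7.93 ± 0.08 in placebo hearts, without overlap, and the endothelial phosphatase gene Ptprb at 9.28 ± 0.10 in DJ-1 hearts and 9.46 ± 0.12 in placebo hearts. Arhgef26, an exchange factor gene, was at 5.11 ± 0.16 in DJ-1 hearts and 5.29 ± 0.08 in placebo hearts (SD, n = 4 each). Pecam1 and Cdh5, the classical proteins of the endothelial contact, differed by 0.02 (95% confidence interval -0.21 to 0.26) and -0.11 (95% confidence interval -0.31 to 0.09). With each array centred on its median the share of all genes with a higher mean was 40.4%, against 52.5% as deposited, so the split of small differences by sign depends on the scaling.

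The arrays were close in median and in correlation with each other, but not on the first principal component. Their medians were 5.28 to 5.35 in DJ-1 samples and 5.25 to 5.29 in placebo samples, and correlations between arrays were 0.978 to 0.987. On the first principal component DJ-1 replicates 3 and 4 lay at 19.6 and 23.5, away from the other arrays at -15.0 to 5.31. All 10 cardiomyocyte markers and all 16 endothelial markers lay above the background guide, and platelet markers, which mark cells that also carry Selp and Esam, were measured for 5 of 8 genes and had a list mean from -0.18 to 0.12 in DJ-1 samples and from -0.29 to 0.42 in placebo samples.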

How the data were processed

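Log2 values for 35556 probe sets and 8 arrays were deposited; the authors made them with RMA, per the submitters' processing notes. RMA usually corrects background, normalizes the arrays together by quantiles and summarises probes; its version and software, and the build behind the probe sets, are not given in the sources. The labels' protocols state 100 ng of total RNA with an integrity number above 7. Genes were named from the platform annotation: 21789 probe sets had 1 symbol, 1621 several and 12146 none, and 21698 of the first were found in RefSeq by Entrez identifier, with 0 symbols changed. The probe set of highest mean was taken per gene (999 genes had several), giving 19938 genes. The background guide is the 95th percentile of 1027 olfactory receptor genes, 4.74 on the log2 scale.

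The contrast of DJ-1 with placebo was fitted with limma 3.58.1 in R 4.3.3 (lmFit, eBayes, two-sided, Benjamini-Hochberg over all genes, no covariate); the procedure was tested on simulated data. Differences are DJ-1 minus placebo. The labels number the samples but do not state that each is 1 mouse, so p-values measure the spread between these samples. The sample codes run through the placebo group and then the DJ-1 group, so an order of processing, if they follow one, and treatment cannot be told apart. The number of arrays limits precision: the median SE was 0.12. Relations across samples were Pearson and Spearman correlations with exact permutation p-values, adjusted over 14; those involving Selp could not be computed. Genes named are the 9 members, the 3 of smallest p in each adhesion and inducer list, the 3 closest in pattern to the member of highest SD and to that of smallest p, and, after their values were seen, Itgb2, Itgam, Pecam1, Cdh5, Myct1 and Kdr for their roles and Tnf, Retnlg, Ltf, Lcn2, Gsn, Lum, Kcnj8, Pdgfrb, Adam8, Cd44 and B4galt5 for their values. The members and lists were chosen with earlier results of these data known. Alternatives were other scalings, probe set rules, filters, variance models, array weights, a replicate block and left-out arrays. Replicates of the same number correlated at 0.005, 0.17, 0.18 and 0.01 after removal of group means, so the numbers were not taken to pair the samples. Some structure by number was present. In both groups, replicates 1 and 2 correlated best with a sample numbered 1 or 2, and replicates 3 and 4 with one numbered 3 or 4. What it reflects was not tested, and the permutation p-values of the relations leave it out.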

Additional observations from a re-analysis of the deposited data

How the results depend on the processing

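Of 160 recomputed member differences 155 kept their sign, and none of the 160 passed an adjusted p of 0.05. The 5 that turned were Jam2 without DJ-1 replicate 1 (0.0014), Sele with DJ-1 replicate 2 omitted (-0.21) or placebo replicate 4 (-0.01), and Vcam1 without DJ-1 replicate 2 (-0.13) or placebo replicate 4 (-0.07). Over the omission of single arrays, the differences ran from -0.21 to 0.63 for Sele, 0.12 to 0.97 for Icam1, -0.13 to 0.41 for Vcam1, -0.069 to 0.0014 for Jam2, -0.19 to -0.02 for Icam2, 0.04 to 0.17 for Esam, 0.04 to 0.19 for Selplg and -0.39 to -0.34 for Jam3. The count of genes past an adjusted p of 0.05 by limma, 0 as deposited with 1194 at an unadjusted p under 0.05, was 0 to 1 when each array was left out. It was 1 without DJ-1 replicate 3 (Pramel27) and 1 without replicates 3 and 4 of both groups (Car3), both named after their values were seen. The members at an unadjusted p under 0.05 numbered 1 to 2 over the omission of single arrays and 2 with DJ-1 replicates 3 and 4 both omitted, Icam1 joining Jam3. The other adhesion genes at an unadjusted p under 0.05, 5 as deposited, numbered 2 to 7 with each array left out, 2 with an intensity trend and 10 without DJ-1 replicates 3 and 4. Of all 19938 genes, 833 to 1480 were at an unadjusted p under 0.05 by limma with each array left out. The number was 1143 with an intensity trend and 911 without DJ-1 replicates 3 and 4. Whether the counts of members or adhesion genes exceeded these shares was not tested.

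Of the 14 relations 9 passed, against 5 without the 2 extreme samples and between 7 and 11 with each array left out. Signs turned for the endothelial markers with Esam (0.093 centred within groups, and -0.41 to 0.12 over the omission of single arrays, positive with DJ-1 replicate 4 omitted, 0.0061, or placebo replicate 4 omitted) and with Jam2 (0.042 with each array centred on its median). With the replicate block, which only shares a number between groups, 0 genes passed, so no call over all genes changed. Of all genes, 1302 had an unadjusted p under 0.05 by limma. Jam3 differed by -0.37 (adjusted p = 0.656 by limma), and 1 member and 5 other adhesion genes had an unadjusted p under 0.05. Of those 5, Adam10 and Itgax were shared with the fit without the block; Chst4, Itga4 and Spn left, and Adam8 (0.50), Cd44 (0.31) and B4galt5 (0.28) entered. Of the 8 samples, 1 correlated best with the sample of its own number in the other group, but all did so within numbers 1 and 2 or within numbers 3 and 4. With the block the SE was 0.23 for Sele, 0.28 for Icam1 and 0.16 for Vcam1, against 0.45, 0.46 and 0.33 without it. Icam1 then had an unadjusted p of 0.108, and none of these genes passed (limma, adjusted p = 0.900, 0.773 and 0.885). In the fit without the block, the number of arrays and the wide spread leave intervals of about 1 log2 unit to either side for Sele and Icam1.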
